A study of Mus musculus with 24 samples.

Results

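The macrophage polarization genes are 10 genes whose transcripts are widely used to describe how macrophages respond to the signals around them. They comprise 3 that encode enzymes of small-molecule metabolism (Arg1, Nos2 and Acod1), 3 that encode secreted proteins (Chil3, Retnla and Ear3) and 4 that encode receptors or a lysosomal membrane protein (Mrc1, Msr1, Cd68 and Cd163). Members were chosen by name, as the genes whose symbol stands alone for at least 1 probe set in the platform annotation, and where a gene had several such sets the brightest one, averaged over the 24 arrays, stood for it. All 10 members were found, with 14 probe sets between them, among 17097 genes in the value table, and 8 of the 10 had 1 probe set.

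In these mice experimental autoimmune encephalomyelitis (EAE), an inflammatory demyelinating disease used as a model of multiple sclerosis, was set off by transferred T cells that recognise a peptide of myelin oligodendrocyte glycoprotein (MOG). Spinal cords were taken from 5 wild-type recipients of Th17-polarized cells, 5 wild-type recipients of Th1-polarized cells, 5 naive wild-type mice, 4 recipients of Th17 cells labelled Act1 KO and 5 naive mice labelled Act1 KO, with 1 array per mouse. Act1 is the adaptor through which IL-17 receptors signal. All mice were female and groups were age-matched littermates according to the methods, which also state that recipients were irradiated with 500 rad and killed 12 days after transfer, while naive mice were left untreated. Irradiation, the T cells and the disease they cause therefore cannot be told apart in a comparison with naive mice. The labels place collection at the onset of symptoms, whereas the series' design text names the peak of disease, and no disease score was given for single mice. Recipients and naive mice called wild type here carry that word in their labels, although a figure of the study names Act1 heterozygous mice as controls.

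Macrophages that meet interferon-γ and bacterial products take on a programme called classical, in which inducible nitric oxide synthase (Nos2) turns arginine into nitric oxide. IL-4 and IL-13, acting through the transcription factor STAT6, drive a programme called alternative, in which arginase 1 (Arg1) turns the same arginine into ornithine and urea, and in which Chil3, Retnla and Mrc1 are raised in mice. In EAE, monocytes from the blood enter the spinal cord and become macrophages beside the resident microglia, and both kinds of marker can be found among them.

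Expression is given as the deposited log2 value, on which a difference of 1 is a doubling. Array medians lay between 3.46 and 3.57, so values under about 3.46 sit in the dim lower part of the scale. Arrays of the same group correlated at 0.986 to 0.997. In naive wild-type cords 8 members averaged below 3.46, so the size of their fold changes against naive cords depends on the background of the probe set. Of the spinal cord tissue markers, 10 of 12 were measured, and none had a group mean below 3.46. Their summed linear level was lower in recipients, with medians of 13913 in wild-type Th17 recipients, 13790 in wild-type Th1 recipients and 17524 in naive wild-type cords. The summed linear level of 13 measured monocyte and macrophage markers was 6401 to 9625 in wild-type Th17 recipients, 7859 to 8654 in wild-type Th1 recipients and 348 to 371 in naive wild-type cords. In whole tissue, fewer cells of a type and less RNA per cell cannot be told apart. Traf3ip2, which encodes Act1, was at 5.38 to 5.92 in naive mice labelled Act1 KO, against 4.07 to 4.60 in naive wild-type mice. In Th17 recipients it was at 5.59 to 5.83 under the Act1 KO label and at 5.14 to 5.56 in wild-type mice. Wild-type Th1 recipients were at 5.0 to 5.3. Its single probe set was thus higher under the Act1 KO label, by 1.27 in naive mice and by 0.31 in Th17 recipients. The sources used here do not describe the allele, so that probe set cannot check the label, and the genotype is given below as labelled.

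The members fell into 3 kinds of profile across the 5 groups. Arg1, Chil3, Acod1, Cd68 and Msr1 had group means of 4.53 or less in naive wild-type cords and of 7.27 or more in both kinds of wild-type recipient. Mrc1 and Ear3 were raised less and varied most between mice, and Nos2, Retnla and Cd163 stayed at or close to the dim end of the scale in every group. The 10-panel plot of single mice shows these profiles side by side.

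**Figure D1:**
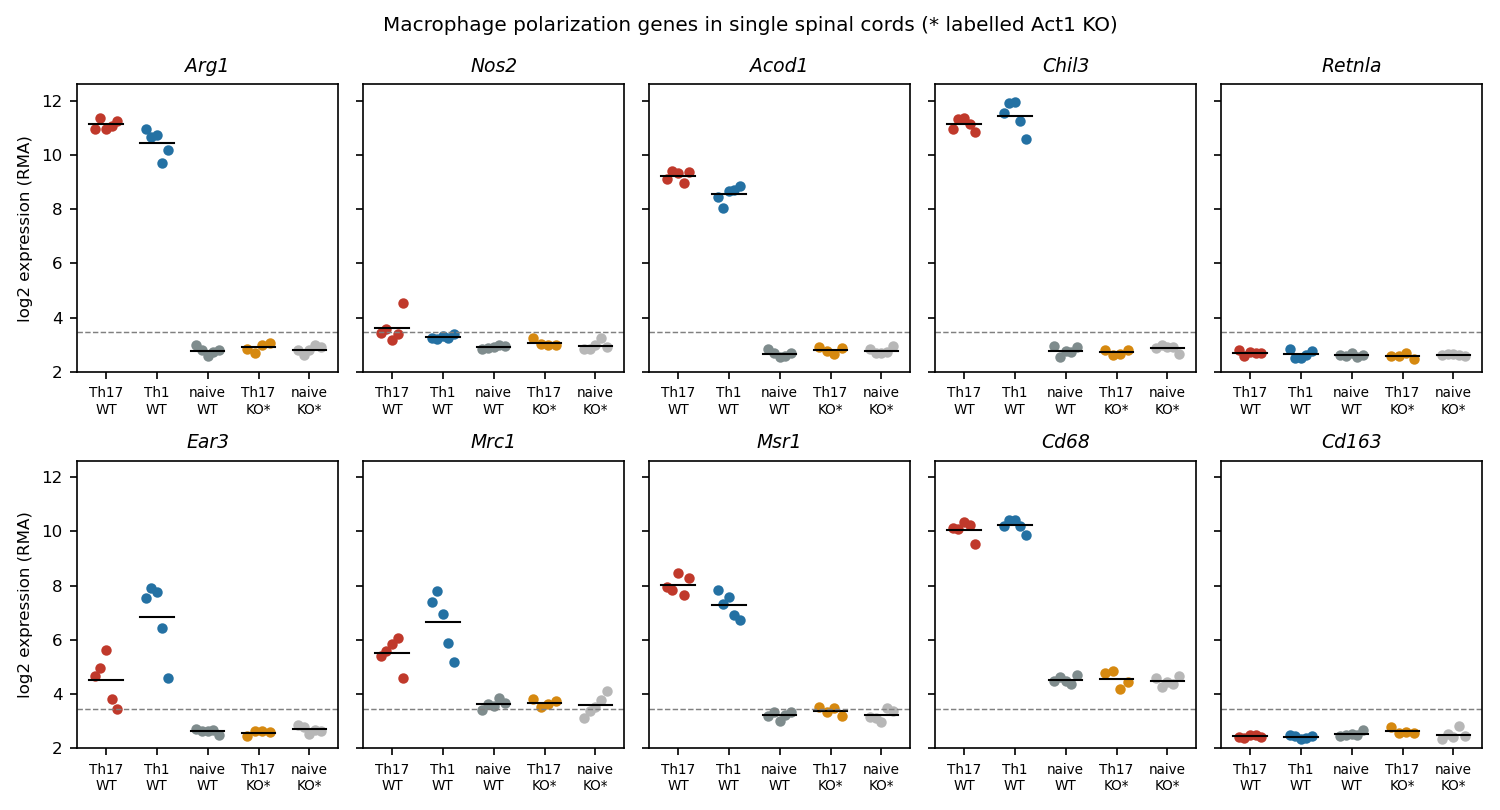
Log2 expression (vertical axis) of each member in every mouse, by group; 1 point is 1 mouse, the bar is the group mean and the dashed line is the lowest array median, 3.46. Wild-type recipients of both kinds stand far above naive cords for Arg1, Chil3, Acod1, Cd68 and Msr1, and the 4 Th17 recipients labelled Act1 KO lie at the naive level in every panel.

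Arginase 1, the enzyme that consumes arginine in alternatively activated macrophages, was far higher in both kinds of recipient. Arg1 stood at 10.97, 11.38, 10.97, 11.09 and 11.24 in wild-type Th17 recipients, at 10.97, 10.66, 10.75, 9.69 and 10.17 in wild-type Th1 recipients, and at 2.99, 2.79, 2.57, 2.72 and 2.79 in naive wild-type cords. Every recipient was thus far above every naive mouse, and all Th17 recipients were at or above the highest Th1 recipient. Relative to naive cords the increase was 328-fold with Th17 cells (8.36 on the log2 scale, SE 0.16, limma adjusted p = 2.24e-24) and 204-fold with Th1 cells (7.67, SE 0.16, adjusted p = 1.25e-23).

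Nos2, which makes nitric oxide from the same substrate, stayed dim. Its values were 3.43, 3.58, 3.16, 3.40 and 4.55 in wild-type Th17 recipients, 3.25, 3.21, 3.34, 3.25 and 3.40 in wild-type Th1 recipients and 2.83, 2.86, 2.93, 3.00 and 2.95 in naive wild-type cords. Recipients and naive mice did not overlap, but only Th17 recipient 5 rose clearly above the dim range. The difference from naive cords was 0.71 in Th17 recipients (SE 0.16, adjusted p = 0.000441), or 0.48 without recipient 5 (adjusted p = 0.000108), and it did not pass in Th1 recipients (0.37, SE 0.16, adjusted p = 0.0571, exact permutation p = 0.00794). With arrays centred on 63 ribosomal protein genes the difference in Th17 recipients was 0.28 (adjusted p = 0.124). The ratio of arginase 1 to inducible nitric oxide synthase cannot be read from these values, since levels of different probe sets are not on a common scale.

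Acod1 encodes the mitochondrial enzyme that makes itaconate, a product of macrophages stimulated with bacterial products. It stood at 9.11, 9.41, 9.33, 8.96 and 9.37 in wild-type Th17 recipients, at 8.45, 8.06, 8.65, 8.71 and 8.86 in wild-type Th1 recipients and between 2.56 and 2.84 in naive wild-type cords. No 2 of these groups overlapped. The increase over naive cords was 94.4-fold in Th17 recipients (6.56, SE 0.12, adjusted p = 4.18e-25) and 58.5-fold in Th1 recipients (5.87, SE 0.12, adjusted p = 4.29e-24). Acod1, a gene tied to the classical programme, and Arg1, tied to the alternative one, were therefore both strongly raised in the same cords.

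Promoters are shown for Acod1 and Chil3, which rose, for Retnla, which did not, and for the Chil3 paralog Chil4. RefSeq windows (build GRCm38.p6) were matched for 6 of the 10 members, Acod1, Cd163, Cd68, Chil3, Mrc1 and Retnla, and the 250 bases before the gene start were searched on both strands for 3 motifs. These were TTC and GAA set 4 bases apart (a STAT6 type), GAAA and GAAA set 2 bases apart (an interferon regulatory factor type) and GGG and CC set 5 bases apart (an NF-κB type), and matches may overlap. Of 32851 RefSeq windows of that length 5.85% held the first, 2.98% the second and 45.8% the last. Each window is written 5′ to 3′ on the gene's strand with the matches in capitals. The windows span chr14:103046762-103047011 on the plus strand for Acod1, chr3:106167565-106167814 on the minus strand for Chil3, chr3:106219480-106219729 on the minus strand for Chil4, the neighbouring paralog, and chr16:48842359-48842608 on the plus strand for Retnla.
Acod1: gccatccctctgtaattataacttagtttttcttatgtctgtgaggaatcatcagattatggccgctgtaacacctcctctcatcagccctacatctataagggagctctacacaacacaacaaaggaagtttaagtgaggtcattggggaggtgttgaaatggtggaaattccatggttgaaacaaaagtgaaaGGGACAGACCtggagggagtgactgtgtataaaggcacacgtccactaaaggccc
Chil3: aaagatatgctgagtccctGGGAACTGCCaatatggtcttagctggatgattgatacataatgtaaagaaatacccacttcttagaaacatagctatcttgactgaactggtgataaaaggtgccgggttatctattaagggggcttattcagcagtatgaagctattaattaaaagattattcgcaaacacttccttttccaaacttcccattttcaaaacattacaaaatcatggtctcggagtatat
Chil4: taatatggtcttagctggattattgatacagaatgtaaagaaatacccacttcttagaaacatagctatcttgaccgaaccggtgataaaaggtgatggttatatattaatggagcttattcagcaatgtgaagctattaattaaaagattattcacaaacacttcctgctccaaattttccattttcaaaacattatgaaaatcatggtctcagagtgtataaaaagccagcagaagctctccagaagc
Retnla: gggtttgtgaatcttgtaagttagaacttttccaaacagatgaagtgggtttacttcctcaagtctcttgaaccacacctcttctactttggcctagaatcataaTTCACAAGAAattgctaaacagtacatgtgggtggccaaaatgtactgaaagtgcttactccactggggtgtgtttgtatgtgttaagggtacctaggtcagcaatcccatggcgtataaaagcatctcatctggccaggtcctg
In Acod1 the capitals mark 1 match to the NF-κB type, starting at position -55 from the gene start. In Chil3 they mark an NF-κB type match at -231, and none of the 3 motifs was found in the Chil4 window. The Chil3 and Chil4 windows share an unbroken run of 44 bases. In Retnla they mark a STAT6-type match at -145, the only one among the 6 matched members. Cd163 held 2 NF-κB type matches, the first at -73, and Mrc1 held 1 at -11, and no match was found in the Cd68 window. A match is a description of the letters and not a binding site.

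Chil3 (Ym1), a secreted chitinase-like protein used as a mark of alternative activation in mice, was likewise far higher in both kinds of recipient. It stood at 10.98, 11.32, 11.35, 11.15 and 10.84 in wild-type Th17 recipients, at 11.54, 11.92, 11.94, 11.24 and 10.60 in wild-type Th1 recipients and at 2.96, 2.56, 2.76, 2.72 and 2.91 in naive wild-type cords. Recipients of both kinds overlapped with each other and lay far above naive mice. The increase was 326-fold in Th17 recipients (8.35, SE 0.17, adjusted p = 8.28e-24) and 407-fold in Th1 recipients (8.67, SE 0.17, adjusted p = 3.87e-24). The probe set that stands for Chil4 followed it closely, at 11.47 to 12.06 in Th17 recipients, 11.07 to 12.39 in Th1 recipients and 3.07 to 3.60 in naive cords, whereas a second Chil4 probe set stayed between 2.51 and 2.94 in those 3 groups. The name of the first ends in _s_at, by which Affymetrix marks probes that can bind several transcripts, so how much of its signal is Chil4 was not resolved and a share of near-identical transcripts in the Chil3 value was not tested.

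Retnla (FIZZ1), a secreted protein of alternatively activated mouse macrophages that is often measured together with Chil3, did not rise with it. Retnla stood at 2.82, 2.58, 2.73, 2.71 and 2.70 in wild-type Th17 recipients, at 2.85, 2.50, 2.52, 2.63 and 2.76 in wild-type Th1 recipients and at 2.62, 2.58, 2.69, 2.55 and 2.61 in naive wild-type cords. All groups overlapped at the dim end of the scale. The difference from naive cords was 0.10 in Th17 recipients (95% interval -0.05 to 0.24, adjusted p = 0.296) and 0.04 in Th1 recipients (-0.10 to 0.19, adjusted p = 0.700). A single probe set measures Retnla here, and a dim value does not show that the transcript was absent. With arrays centred on ribosomal protein genes these differences turned to -0.33 (adjusted p = 0.00184) and -0.45 (adjusted p = 7.65e-05), a scaling that moved the median of all genes by -0.43 and -0.49.

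Ear3 belongs to the mouse eosinophil-associated ribonucleases, secreted proteins that are also made by some macrophages. It stood at 4.67, 4.96, 5.62, 3.80 and 3.46 in wild-type Th17 recipients, at 7.53, 7.91, 7.76, 6.46 and 4.61 in wild-type Th1 recipients and at 2.70, 2.65, 2.65, 2.69 and 2.51 in naive wild-type cords. Th1 recipients 1 to 4 were above every Th17 recipient, whereas Th1 recipient 5 lay within the Th17 range. The increase over naive cords was 3.64-fold in Th17 recipients (1.86, SE 0.42, adjusted p = 0.000556) and 18.5-fold in Th1 recipients (4.21, SE 0.42, adjusted p = 4.34e-09). A second Ear3 probe set, of the _x_at type that Affymetrix marks as prone to cross-binding, was at 2.68 to 3.33 in Th17 recipients and at 5.65, 4.59, 5.94, 4.22 and 2.65 in Th1 recipients, and its difference between Th17 recipients and naive cords did not pass (0.42, adjusted p = 0.371). The first set is of the _s_at type, so both can bind related ribonuclease transcripts. Ear14, the only other Ear gene with a probe set of its own, stayed between 2.29 and 2.64 in these 3 groups.

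Eosinophil markers were looked at beside Ear3. Of 6 listed, 5 were measured, and their summed linear level was 31.2 to 40.7 in Th17 recipients, 39.0 to 43.7 in Th1 recipients and 31.5 to 33.5 in naive wild-type cords. Epx (eosinophil peroxidase), Prg2 (major basic protein) and Ccr3 (the eotaxin receptor) averaged below 3.46 in all 5 groups and did not differ between Th17 and Th1 recipients (adjusted p between 0.862 and 0.918). Siglecf, a lectin of eosinophils and alveolar macrophages, was lower in Th17 than in Th1 recipients by 0.69 (SE 0.13, adjusted p = 0.00175), with 2.97 to 3.86 in Th17 recipients and 3.93 to 4.21 in Th1 recipients.

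**Figure D2:**
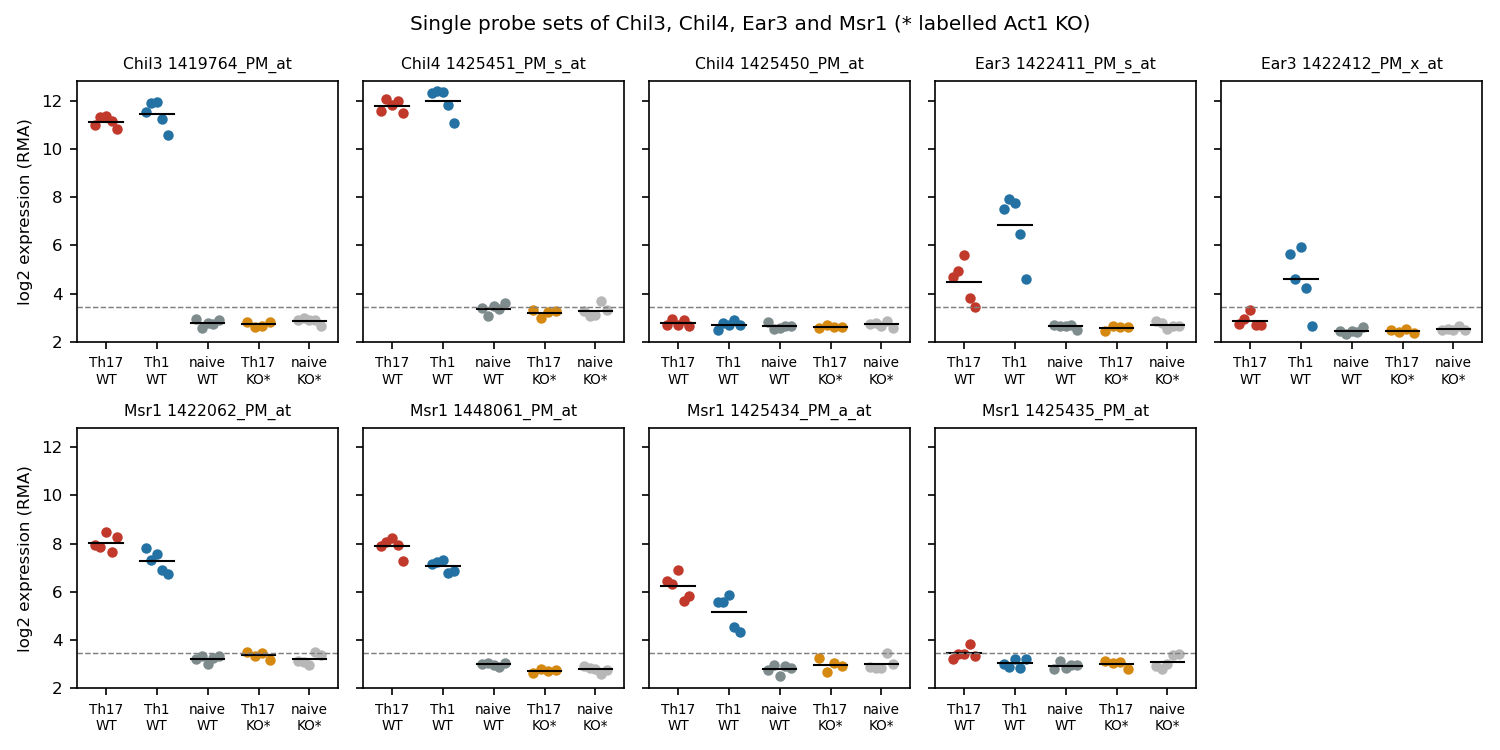
Log2 expression (vertical axis) of 9 single probe sets of Chil3, Chil4, Ear3 and Msr1 in every mouse, by group; points are mice, bars group means and the dashed line the lowest array median, 3.46. The Chil4 set that can bind several transcripts copies the Chil3 profile while the other Chil4 set is flat, and 3 of 4 Msr1 sets agree in profile.

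Mrc1 (CD206), the mannose receptor of alternatively activated and tissue macrophages, rose moderately and unevenly. Its values were 5.41, 5.59, 5.86, 6.08 and 4.60 in wild-type Th17 recipients, 7.39, 7.79, 6.97, 5.89 and 5.20 in wild-type Th1 recipients and 3.40, 3.63, 3.55, 3.86 and 3.66 in naive wild-type cords. Every recipient was above every naive mouse, and the recipients overlapped because Th1 recipients 4 and 5 fell within the Th17 range. The increase was 3.70-fold in Th17 recipients (1.89, SE 0.33, adjusted p = 2.83e-05) and 8.14-fold in Th1 recipients (3.03, SE 0.33, adjusted p = 2.47e-08).

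Msr1 (scavenger receptor A), which binds modified lipoproteins and other polyanions, was raised strongly. It stood at 7.95, 7.84, 8.48, 7.67 and 8.28 in wild-type Th17 recipients, at 7.82, 7.33, 7.58, 6.90 and 6.73 in wild-type Th1 recipients and at 3.20, 3.34, 3.00, 3.25 and 3.35 in naive wild-type cords. Among recipients only Th1 recipient 1 reached into the Th17 range. The increase was 28.2-fold in Th17 recipients (4.82, SE 0.17, adjusted p = 7.62e-19) and 16.5-fold in Th1 recipients (4.05, SE 0.17, adjusted p = 3.92e-17). Of the 3 other Msr1 probe sets, 2 showed the same profile, and the dimmest stood at 3.23 to 3.84 in Th17 recipients and 2.84 to 3.23 in Th1 recipients and did not pass between Th1 recipients and naive cords (0.10, adjusted p = 0.592).

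Cd68, a heavily glycosylated protein of macrophage lysosomes that is used as a general mark of phagocytes, rose alike in both kinds of recipient. It stood at 10.13, 10.08, 10.35, 10.23 and 9.54 in wild-type Th17 recipients, at 10.22, 10.44, 10.44, 10.22 and 9.88 in wild-type Th1 recipients and at 4.47, 4.62, 4.49, 4.37 and 4.69 in naive wild-type cords. The 2 kinds of recipient overlapped and both were well clear of naive mice. The increase was 46.5-fold in Th17 recipients (5.54, SE 0.14, adjusted p = 6.89e-22) and 52.4-fold in Th1 recipients (5.71, SE 0.14, adjusted p = 3.60e-22).

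Cd163, the haemoglobin-haptoglobin scavenger receptor of resident and border-associated macrophages, was the other flat member. It lay between 2.39 and 2.51 in wild-type Th17 recipients, between 2.35 and 2.51 in wild-type Th1 recipients and between 2.46 and 2.67 in naive wild-type cords, so all 3 groups overlapped at the dim end. The difference from naive cords was -0.09 in Th17 recipients (95% interval -0.25 to 0.08, adjusted p = 0.420) and -0.10 in Th1 recipients (-0.27 to 0.06, adjusted p = 0.337). Centring on ribosomal protein genes made both pass as lower, at -0.51 (adjusted p = 9.70e-05) and -0.59 (adjusted p = 1.52e-05). The same centring moved the median of all genes by -0.43 and -0.49.

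Counted over the members, 8 of 10 were called higher in wild-type Th17 recipients than in naive wild-type cords and 0 lower, where calls are limma adjusted p-values under 0.05 and 18.0% of all 17097 genes were called higher and 25.5% lower. In wild-type Th1 recipients 7 of 10 were called higher and 0 lower, against 16.7% and 24.1% of all genes, where Nos2 alone makes the counts differ. Nos2 did pass in Th1 recipients with a trended robust variance (adjusted p = 0.0428), array weights (0.0115), the title letter or the replicate number as a block (0.0296 and 0.0475), a fit of the 2 groups alone (0.000383), the methods' t-test (0.000373) and the exact Mann-Whitney test (0.0236). The median difference of the members was 3.35 in Th17 recipients and 4.13 in Th1 recipients, beside -0.05 and -0.06 for all genes. In 8 of 10 members the recipients of either kind did not overlap with naive mice, and groups not overlapping in that direction made up 15.0% of all genes for Th17 recipients and 14.1% for Th1 recipients (20.0% and 19.5% in the opposite direction). Both comparisons share the 5 naive wild-type mice. Sample titles hold a well-like code whose letter was read as a possible plate row, although the labels do not say what it stands for. Th17 recipients could be set against naive mice of the same letter for 4 letters and Th1 recipients for 3, and in each of these the 8 members were higher in recipients.

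**Figure D3:**
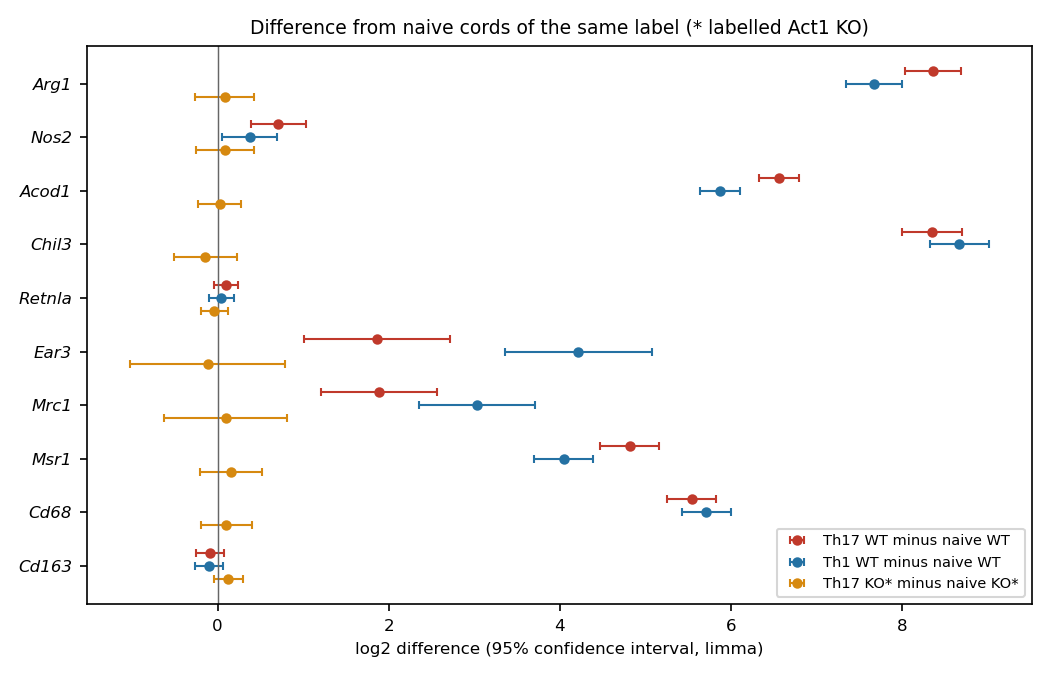
Log2 difference from naive cords carrying the same genotype label (horizontal axis) with 95% confidence intervals from limma, for each member and 3 comparisons. For Arg1, Chil3, Acod1, Cd68 and Msr1 the differences in wild-type recipients run from 4.05 to 8.67, whereas every interval in mice labelled Act1 KO includes 0.

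Other genes of the programmes rose in the same cords, where 18.0% of all genes were called higher in Th17 and 16.7% in Th1 recipients. Of 24 further genes of the IL-4 and IL-13 alternative programme, 18 were called higher and 0 lower in wild-type Th17 recipients against naive cords (median difference 1.53), and 19 were higher and 0 lower in Th1 recipients (median 1.63). Those with the smallest adjusted p in Th17 recipients were Clec7a (dectin-1, 6.86), the Chil4 probe set named above (8.40), F13a1 (coagulation factor XIII, 6.04) and Fn1 (fibronectin, 5.25). Of 20 measured further genes of the LPS and interferon-γ classical programme, 17 were higher and 0 lower in each kind of recipient (median 3.13 in Th17 and 2.59 in Th1 recipients), led in Th17 recipients by the chemokines Cxcl9 (6.82), Cxcl10 (7.33) and Ccl5 (6.76) and by the formyl peptide receptor Fpr2 (6.24). Markers of both programmes were thus raised in the same tissue, and whether single cells carried both was not measured. The lists were drawn up with earlier results of these data known.

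Around the enzymes, 16 of 18 listed genes of arginine and nitric oxide metabolism were measured, and 6 were higher and 3 lower in Th17 recipients than in naive wild-type cords. Of all genes 18.0% were called higher and 25.5% lower there, so the lower calls were not above the general share. Higher were Gch1 (3.37), which makes the cofactor that nitric oxide synthases need, Arg2 (2.43), the mitochondrial arginase, and Slc7a2 (1.87), an arginine transporter. Ass1 (2.97), which rebuilds arginine from citrulline, was also higher. Lower were Nos1 (-0.73), the neuronal synthase, and the polyamine synthases Sms (-0.60) and Srm (-0.24). In Th1 recipients 7 were higher and 5 lower, beside 16.7% and 24.1% of all genes.

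Among 20 further scavenger receptors 8 were higher and 1 lower in Th17 recipients, and 10 higher and 1 lower in Th1 recipients. The shares of all genes were 18.0% higher and 25.5% lower in Th17 recipients, and 16.7% and 24.1% in Th1 recipients. Cxcl16 (5.23), Stab1 (3.43), Cd36 (2.50) and Mertk (2.04) led in Th17 recipients, and Megf10, an engulfment receptor of astrocytes, was lower in both (-0.79 and -0.41). Of 20 measured polarizing cytokines, receptors and transcription factors 17 were higher and 0 lower in each kind of recipient. Csf2rb (5.54), the shared receptor chain for GM-CSF and IL-3, and the transcription factor genes Cebpd (4.76) and Cebpb (4.01) led with Tgfb1 (3.34). Il4 stood at 2.94 to 3.25 in Th17 recipients, 3.00 to 3.16 in Th1 recipients and 3.05 to 3.42 in naive wild-type cords, and Il13 at 2.87 to 3.15, 2.86 to 3.18 and 3.04 to 3.37 in the same order, so neither rose above the dim range. These genes and Il4ra were picked after their values were seen. The receptor chain they share, Il4ra, was higher in Th17 recipients (1.98, adjusted p = 2.69e-11) and in Th1 recipients (1.54, adjusted p = 4.34e-09).

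Th17 and Th1 recipients were then compared with each other, the contrast for which the series transferred cells of both kinds. Of 10 members 3 were called higher with Th17 cells and 1 lower, against 1.91% and 1.09% of all genes. The 3 higher members were Arg1 (0.68, SE 0.16, adjusted p = 0.0133), Acod1 (0.69, SE 0.12, adjusted p = 0.000456) and Msr1 (0.77, SE 0.17, adjusted p = 0.00699), which correspond to 1.60-, 1.61- and 1.71-fold. Ear3 was 5.10-fold lower in Th17 recipients (-2.35, SE 0.42, adjusted p = 0.00101) and held rank 5 from the bottom among 17097 genes. It was also the 1 called member past 2-fold, as were 0.515% of all genes. In a fit of these 2 groups alone Ear3 (adjusted p = 0.0613), Arg1 (0.125) and Msr1 (0.0875) did not pass. After adjustment none of the 4 passed by the methods' t-test (Ear3 0.281). The exact Mann-Whitney test could not decide on the members, since after adjustment it called 0 of all genes (smallest adjusted p 0.241, Ear3 0.489). Mrc1 was at rank 20 from the bottom, but its difference did not pass (-1.14, 95% interval -1.82 to -0.46, adjusted p = 0.0608).

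The remaining members did not separate the 2 kinds of transfer. Chil3 differed by -0.32 (95% interval -0.67 to 0.03, adjusted p = 0.489), Cd68 by -0.17 (-0.46 to 0.11, adjusted p = 0.765) and Nos2 by 0.34 (0.02 to 0.66, adjusted p = 0.377). Retnla (0.06, -0.09 to 0.20) and Cd163 (0.02, -0.15 to 0.18) were flat. Exact two-sided permutation tests, of which 60 were run over members and comparisons, gave p = 0.00794 for Arg1 and Acod1, the smallest value that 5 against 5 mice allow, 0.0159 for Msr1, 0.0317 for Ear3 and 0.0873 for Mrc1. Only Arg1 and Acod1 had groups that did not overlap, in a comparison where 1.93% of all genes did not overlap with Th17 recipients higher and 1.36% with Th17 recipients lower.

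The Th1 recipients themselves were uneven. Th1 recipients 4 and 5 were the lowest of their group for Arg1 (9.69 and 10.17), Mrc1 (5.89 and 5.20), Ear3 (6.46 and 4.61) and Msr1 (6.90 and 6.73), and recipient 5 was lowest for Chil3 (10.60) and Cd68 (9.88). For Acod1 the same mice were the highest of their group (8.71 and 8.86). Their summed monocyte and macrophage marker levels, 7934 and 7859, were close below those of Th1 recipients 1 to 3 (7965, 8654 and 8461), and their part in these differences was not tested. Since they were singled out by their values, leaving them out shows only what rests on them. Without them the comparison still called 4 members but not the same 4: Ear3 (-3.23, adjusted p = 3.19e-08), Mrc1 (-1.87, adjusted p = 2.20e-05) and Chil3 (-0.67, adjusted p = 0.00182) were lower and Acod1 (0.85, adjusted p = 0.000104) was higher in Th17 recipients, while Arg1 (0.34, adjusted p = 0.209) and Msr1 (0.47, adjusted p = 0.178) no longer passed. With the title letter as a block Arg1 (0.55, adjusted p = 0.110) and Msr1 (0.72, adjusted p = 0.0845) also failed to pass, and within the 3 letters that hold both kinds of recipient Arg1, Acod1 and Msr1 were higher in Th17 recipients in 3 of 3 while Ear3 and Mrc1 were lower in 2 of 3.

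**Figure D4:**
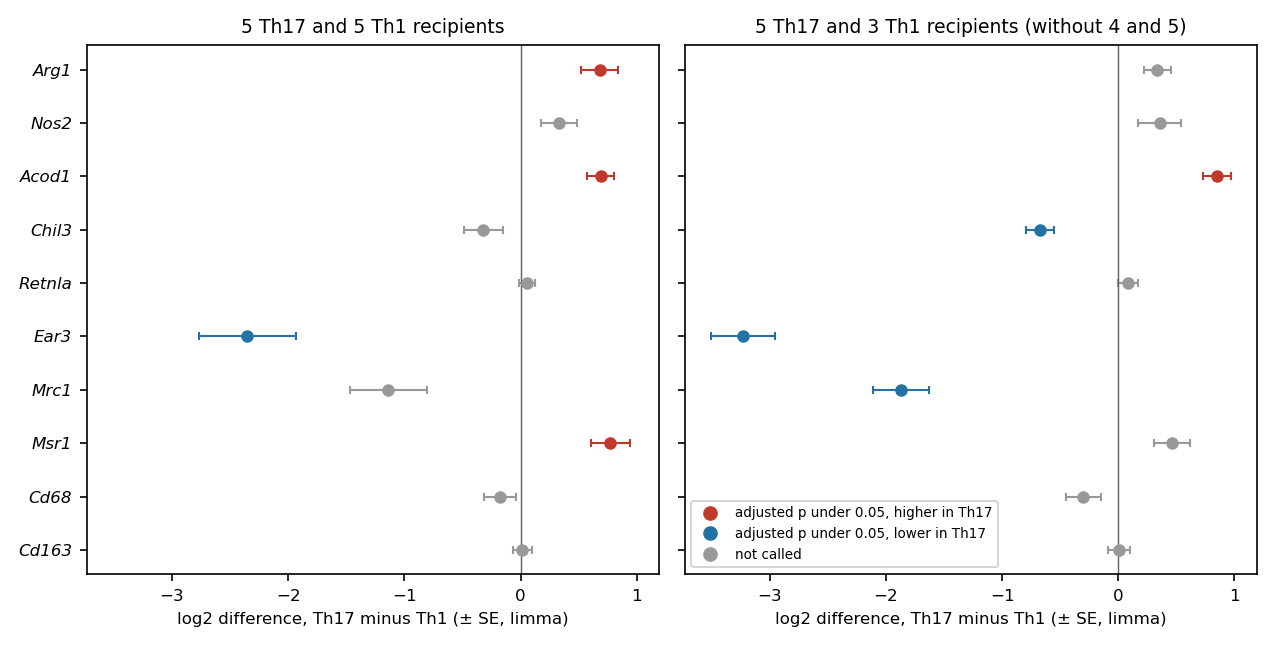
Log2 difference between wild-type Th17 and Th1 recipients (horizontal axis, Th17 minus Th1) with its standard error from limma, for all 10 recipients (left) and without Th1 recipients 4 and 5 (right); colours mark adjusted p-values under 0.05. Acod1 and Ear3 pass on both sides, Arg1 and Msr1 only on the left, and Chil3 and Mrc1 only on the right. Th1 recipients 4 and 5 were singled out by their values, so the right side shows only what rests on them.

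One Th17 recipient also stood apart from its group. Recipient 5 had the lowest Mrc1 (4.60), Ear3 (3.46), Cd68 (9.54) and Chil3 (10.84) of the 5, and by far the highest Nos2 (4.55). Its summed monocyte and macrophage marker level was the lowest of the group (6401, against 7634 to 9625 in the other Th17 recipients), and its neutrophil marker level was the highest (1556, against 770 to 1193). The part of these markers in the member values was not tested. For Arg1 and Acod1 this mouse was second highest of its group, and for Msr1 its place depended on the probe set (second highest at 8.28 in the set used here, lowest at 7.29 in the next brightest).

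**Figure D5:**
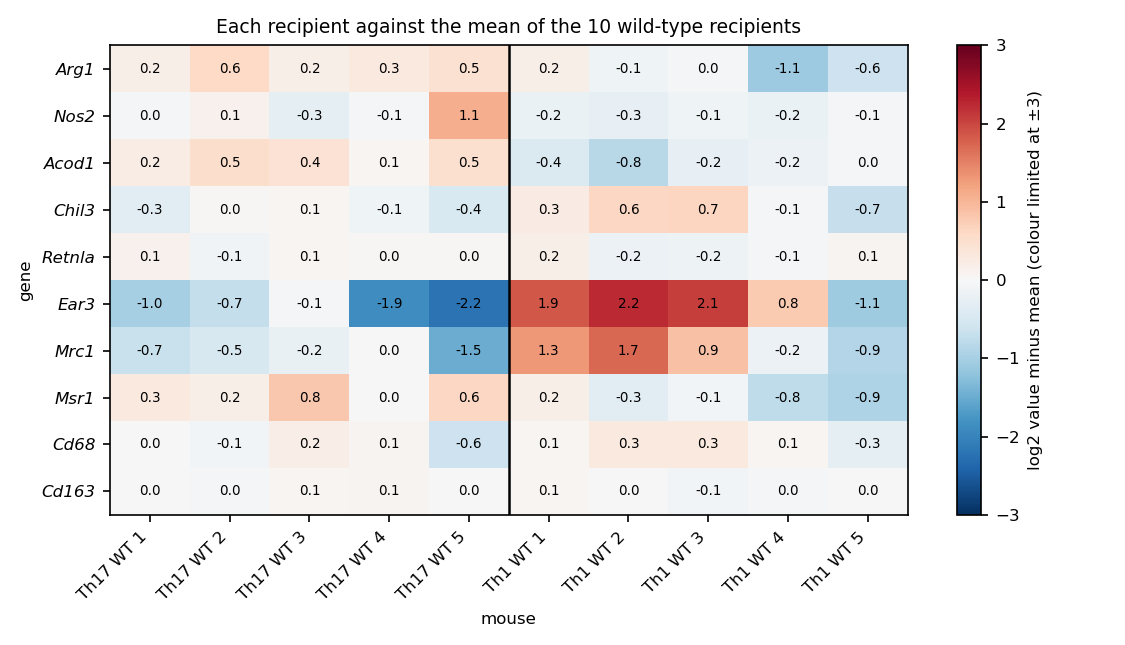
Log2 value of each member in each wild-type recipient minus the mean over the 10 wild-type recipients, with Th17 recipients left of the line and Th1 recipients right of it; colours are limited at 3 in both directions. Ear3 and Mrc1 vary most, from -2.2 to 2.2 for Ear3 and from -1.5 to 1.7 for Mrc1, and Retnla and Cd163 vary least.

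With Th17 recipients set against Th1 recipients, 21 of 24 other alternative and 13 of 20 other classical genes passed in neither direction. Not passing does not mean equal levels, since 14 of the 24 and 9 of the 20 had an unadjusted limma p under 0.05. By another test, the methods' t-test, 1843 of 17097 genes did before adjustment. Genes of the lists that did pass were mostly higher in Th17 recipients. Of all genes 1.91% were called higher there and 1.09% lower. In the alternative list 3 of 24 were higher in Th17 recipients and 0 lower: Ch25h (cholesterol 25-hydroxylase, 1.49, adjusted p = 6.04e-06), F13a1 (1.07, adjusted p = 8.61e-05) and Irf4 (0.40, adjusted p = 0.0217). Pparg, a nuclear receptor of lipid-handling macrophages, was at -1.05 and did not pass (adjusted p = 0.0646). In the classical list 6 of 20 were higher in Th17 recipients, led by Il1b (2.28), Socs3 (1.19), Ptgs2 (1.39) and Il6 (0.98), and Cxcl9, a chemokine induced by interferon-γ, was lower (-0.31, adjusted p = 0.0498). The list medians, 0.06 and 0.05, were close to the median of all genes (-0.001).

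Arginine genes pointed to Th17 recipients where they differed. Arg2 stood at 4.88 to 5.75 in Th17 recipients and 3.56 to 3.91 in Th1 recipients (1.66, SE 0.13, adjusted p = 5.17e-09), and Odc1, the enzyme that turns ornithine into polyamine precursors, was higher by 0.59 (adjusted p = 0.00548). Gch1 was higher by 0.62 (adjusted p = 0.0118). By the same test 3 of 16 were higher and 0 lower, beside 1.91% and 1.09% of all genes. Chil1, a chitinase-like relative of Chil3, was at 9.60 to 10.36 in Th17 recipients and 6.73 to 7.55 in Th1 recipients (2.73, SE 0.14, adjusted p = 1.22e-12), a difference that Chil3 did not show. Among 20 scavenger receptors 0 were higher and 2 lower in Th17 recipients, Cd36 (-0.84, adjusted p = 0.000159) and Megf10 (-0.38, adjusted p = 0.00546). Of the polarizing factors Cebpd (0.76, adjusted p = 0.000346) and Hif1a (0.50, adjusted p = 0.00849) were higher.

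Marker levels of other cells differed between the 2 kinds of recipient as well. The 10 measured neutrophil markers summed to 770 to 1556 in Th17 recipients and 231 to 412 in Th1 recipients, with 6 of 10 called higher in Th17 recipients. For all marker counts in this comparison, the shares of all genes called were 1.91% higher and 1.09% lower in Th17 recipients. The part of neutrophils in the Arg1 difference was not tested. Dendritic cell markers summed to 90.6 to 120.8 in Th17 recipients and 161 to 290.2 in Th1 recipients, set mostly by Itgax, an integrin also found on macrophages, which was lower in Th17 recipients by 1.48 (adjusted p = 7.81e-08). Of the monocyte and macrophage markers 4 of 13 were higher in Th17 recipients and 0 lower: Plac8 (1.34), Ccr2 (0.73), Cd14 (0.58) and Itgam (0.52). Border-associated macrophage markers summed to 649 to 1314 in Th17 recipients and 513 to 784 in Th1 recipients, with Pf4 (1.60) and F13a1 (1.07) higher, while 6 of 11 (Lyve1, Folr2, Cbr2, Siglec1, Timd4 and Clec10a) averaged below 3.46 in both. None of 8 homeostatic microglia markers was called between the 2 kinds of recipient by limma.

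Mice labelled Act1 KO gave a different picture. In Th17 recipients labelled Act1 KO, Arg1 stood at 2.83, 2.71, 3.00 and 3.08, against 2.79, 2.62, 2.81, 2.98 and 2.91 in naive mice labelled Act1 KO. Chil3 was at 2.82, 2.63, 2.66 and 2.81 in these recipients and at 2.88, 2.99, 2.92, 2.92 and 2.66 in their naive mice, and Cd68 at 4.78, 4.85, 4.20 and 4.46, against 4.60, 4.27, 4.44, 4.36 and 4.67. In the other members, Acod1 lay at 2.66 to 2.91 in these recipients and 2.68 to 2.94 in naive mice, Msr1 at 3.19 to 3.51 and 2.97 to 3.50, Mrc1 at 3.52 to 3.82 and 3.13 to 4.11, and Ear3 at 2.45 to 2.65 and 2.53 to 2.85. Nos2 lay at 2.97 to 3.23 in these recipients and 2.85 to 3.26 in naive mice, Retnla at 2.49 to 2.70 and 2.60 to 2.64, and Cd163 at 2.56 to 2.80 and 2.33 to 2.81. Recipients and naive mice overlapped for all 10 members, whereas 0.813% of all genes were free of overlap with recipients higher and 0.684% with recipients lower. By limma 0 of 10 members were called in either direction, and 0 had an unadjusted p under 0.05, in a comparison where 0% of all genes were called. The methods' t-test called 0 genes after adjustment and 707 before it, and an exact Mann-Whitney test 0 and 521. The 95% interval of the difference ran from -0.27 to 0.43 for Arg1, from -0.51 to 0.23 for Chil3, from -0.22 to 0.28 for Acod1, from -0.20 to 0.41 for Cd68 and from -0.21 to 0.52 for Msr1. For Ear3 (-1.03 to 0.79) and Mrc1 (-0.62 to 0.82) the intervals were wider, since the spread is shared with the uneven wild-type recipients.

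Set against wild-type Th17 recipients, Th17 recipients labelled Act1 KO had 8 of 10 members called lower and 0 higher, with 17.6% of all genes called lower and 24.6% higher. The differences were -8.40 for Chil3, -8.23 for Arg1, -6.44 for Acod1, -5.49 for Cd68 and -4.67 for Msr1. For Ear3 they were -1.92, for Mrc1 -1.83 and for Nos2 -0.57, with adjusted p-values up to 0.00611. Nos2 was at -0.34 without Th17 recipient 5 (adjusted p = 0.00574) and did not pass with ribosomal centring (-0.19, adjusted p = 0.334), by the methods' t-test (adjusted p = 0.161) or by the exact Mann-Whitney test (adjusted p = 0.0796). The second Ear3 probe set did not pass either (-0.42, adjusted p = 0.392). Of these 8, all but Nos2 were free of overlap, as were 15.1% of all genes in that direction and 19.2% in the other. Cd163 lay at 2.80, 2.57, 2.60 and 2.56 in Th17 recipients labelled Act1 KO and at 2.39 to 2.51 in wild-type Th17 recipients, which did not overlap, but the difference did not pass (0.19, adjusted p = 0.0734, exact permutation p = 0.00794).

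The Th17 response itself, the difference between recipients and naive mice of a label, was compared between labels in the same fit. In mice labelled Act1 KO it was smaller than in wild-type mice for 8 of 10 members, with 13.8% of all genes called in that direction and 18.2% in the other. The difference of responses was -8.49 for Chil3 (SE 0.25), -8.27 for Arg1 (SE 0.23), -6.53 for Acod1 (SE 0.17), -5.44 for Cd68 (SE 0.20) and -4.66 for Msr1 (SE 0.24). It was -1.98 for Ear3 (adjusted p = 0.0126), -1.79 for Mrc1 (adjusted p = 0.00455) and -0.63 for Nos2 (adjusted p = 0.0351), the last of which lost its call when any 1 of 6 arrays was left out (adjusted p up to 0.0684). With the title letter as a block neither Ear3 (-2.16, adjusted p = 0.098) nor Nos2 (-0.32, adjusted p = 0.513) passed. No letter held both recipients and naive mice labelled Act1 KO, so that block reaches their difference only through other groups. Without Th17 recipient 5 the Nos2 value was -0.40, and Ear3 did not pass with its second probe set (-0.50, adjusted p = 0.528) or the mean of both sets (-1.24, adjusted p = 0.0823). Markers of infiltrating cells moved with these members and their part was not tested. The 13 monocyte and macrophage markers summed to 334 to 391 in Th17 recipients labelled Act1 KO and 318 to 383 in their naive mice, and the 7 T cell markers to 56.4 to 65.3 and 51.6 to 60.4. Genotype, disease severity and the number of infiltrating cells cannot be told apart in these recipients.

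Naive cords of the 2 labels did not differ in any member. Of 10 members 0 were called in naive mice labelled Act1 KO against naive wild-type mice by limma, and 0 had an unadjusted p under 0.05, with 0.164% of all genes called higher and 0.421% lower. Both groups overlapped for all 10, while 0.725% of all genes did not overlap with the label Act1 KO higher and 1.04% with it lower. The differences lay between -0.06 for Cd68 (95% interval -0.34 to 0.23) and 0.10 for Acod1 (-0.14 to 0.33). The methods' t-test called 11 genes after adjustment and an exact Mann-Whitney test 0 (857 before adjustment), none of them a member.

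Over the 5 groups the order of levels was simple for most members. In all 10 members, neighbours in that order among naive wild-type mice, naive mice labelled Act1 KO and Th17 recipients labelled Act1 KO overlapped. Arg1, Nos2, Acod1 and Msr1 were highest in wild-type Th17 recipients, and Chil3, Ear3, Mrc1 and Cd68 in wild-type Th1 recipients, but the first and second groups overlapped for each of these except Arg1 and Acod1.

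Genes with the most similar profile were read from Pearson correlations of log2 values over the 24 arrays, which share the contrast between diseased and other cords. For Arg1 they were Ifi209 and Oas1g, both induced by interferon (r = 0.998 each), for Acod1 Zbp1 and Icam1 (0.997 each), for Chil3 the Chil4 set and Ccl6 (0.999 each), for Cd68 Cybb and Tyrobp (0.998 each) and for Msr1 Ldha and Ifitm2 (0.995 each). Ear3 and Mrc1 were nearest to other genes: Lpl (lipoprotein lipase, 0.972) and Pparg (0.953) for Ear3, and Lpl (0.960) and Atp6v0d2 (a subunit of the vacuolar proton pump, 0.959) for Mrc1. Ear3 and Mrc1 also correlated with each other at 0.951. Against this stood 0.811 and 0.878 with Arg1, 0.857 and 0.905 with Chil3, and 0.85 and 0.903 with Cd68. Lpl was lower in Th17 recipients (6.82 to 8.36) than in Th1 recipients (8.05 to 9.62), by 1.39. As Lpl was picked for its likeness to Ear3 and Mrc1 over the same arrays, this difference is not a separate result. For the dim members the nearest genes were Ccl4 (0.874) and Slc44a3 (0.858) for Nos2, Epha2 (0.634) and Creb5 (0.632) for Retnla, and Dusp21 (0.792) and 1700018B08Rik (0.788) for Cd163.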

How the data were processed

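Spinal cord RNA from 24 mice was hybridised to Affymetrix HT-MG-430PM arrays, 1 per mouse. The authors deposited log2 values for 45118 probe sets, and the submitters' processing notes name RMA. Its version is not given in the sources used here, nor which arrays entered it together. RMA gives arrays a common distribution, so a shift of all genes in a group would not show. Precision is limited by how many arrays there are.

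Probe sets with 1 symbol in the platform annotation (28898, against 551 with several and 15669 not listed) gave 17097 genes, each represented by its set with the highest mean. All arrays differed from each other (by at least 0.143 on average per probe set). Groups came from the sample labels, and since the mice are separate animals, p-values measure the spread between mice. All 24 arrays entered 1 limma fit (lmFit and eBayes, version 3.58.1, R 4.3.3), whose two-sided p-values were adjusted over all genes by Benjamini-Hochberg and called under 0.05. The fit was tested on simulated normal values with 1 spread per gene shared by all groups. Real spreads could differ between groups, as for Ear3 (SD 0.078 in naive wild-type mice and 1.377 in wild-type Th1 recipients), which the simulation did not cover. Single members were also compared by exact permutation. Alternatives were other probe sets, 2 centrings, a filter on dim genes, variance and weight options, blocks for replicate number and for the letter of a title code (read as a possible plate row, which the labels do not state), left-out arrays, a 2-fold threshold, the methods' t-test and an exact Mann-Whitney test.

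The members and lists were chosen with earlier results of these data known. Named were all members, their close paralogs, up to 4 genes per list with the smallest adjusted p and any called against the majority, and the 2 genes nearest each member by correlation. Sequences are from RefSeq, and 1 further motif searched in them is not reported here.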

Additional observations from a re-analysis of the deposited data

Results flagged for a closer look

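The Th17 response differed between labels for 8 members by the interaction term, each smaller in mice labelled Act1 KO than in wild-type mice: Chil3 by -8.49, Arg1 by -8.27, Acod1 by -6.53, Cd68 by -5.44, Msr1 by -4.66, Ear3 by -1.98, Mrc1 by -1.79 and Nos2 by -0.63 on the log2 scale. Single mice stood far from their group in 2 of the 50 sets of 4 or 5 values examined, where chance marks about 1 in 20. Cd163 in Th17 recipient 1 labelled Act1 KO was at 2.80, above the other 3, and Ear3 in naive wild-type mouse 5 was at 2.51, below the other 4. Both values lie at the dim end of the scale.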

How the results depend on the processing

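The 7 counts of called members were most sensitive for Th17 against Th1 recipients. There the count of 4 became 1 when the fit held just those 2 groups, 2 with the title letter as a block, 0 by the methods' t-test after adjustment, 0 by the exact Mann-Whitney test after adjustment (smallest adjusted p over all genes 0.241) and 1 with an added 2-fold threshold. Leaving out 1 array at a time gave 4 to 6 there, 8 in Th17 recipients against naive wild-type cords, 7 in Th1 recipients, 0 in both comparisons of naive mice labelled Act1 KO, 8 for Th17 recipients labelled Act1 KO against wild-type ones and 7 to 8 for the difference of responses. Mrc1 passed between Th17 and Th1 recipients without Th17 recipient 4 or without Th1 recipient 4 or 5 (adjusted p down to 0.0021), and Chil3 without Th1 recipient 5 (-0.53, adjusted p = 0.021). Centring on 63 ribosomal protein genes turned Retnla to -0.33 in Th17 recipients and -0.45 in Th1 recipients against naive cords and to 0.27 (adjusted p = 0.0143) in Th17 recipients labelled Act1 KO against wild-type ones. A difference that passed under neither setting was given no direction. The dim-gene filter kept 10774 genes and left out Nos2, Retnla and Cd163, and Mrc1 then passed between Th17 and Th1 recipients (adjusted p = 0.0447). With the second Ear3 probe set the Th17 differences from naive cords (0.42) and between labels (-0.42 and -0.50) did not pass. Of 46 same-numbered pairs of mice from different groups, 16 correlated above 0.1 (range -0.29 to 0.44). Whether the replicate numbers in the labels pair the mice was not settled, since differently numbered pairs were not set beside them. A replicate block left 4 members called between Th17 and Th1 recipients, and Nos2 passed in Th1 recipients (adjusted p = 0.0475) and failed in the difference of responses (adjusted p = 0.0518). Cd163 passed as higher in Th17 recipients labelled Act1 KO than in wild-type ones under median centring (0.25, adjusted p = 0.0149), ribosomal centring (0.57, adjusted p = 7.14e-05), a trended robust variance, array weights, the t-test and the Mann-Whitney test. Ribosomal centring moved the median of all genes by 0.38 in that comparison, and Cd163 averaged below 3.46 in every group. The causes were not tested.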
